A study of Mus musculus with 6 samples.

Results

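The genes described here are the D-type cyclins and the proteins that act with or against them in the G1 phase of the cell cycle: the cyclins Ccnd1, Ccnd2 and Ccnd3, the kinases Cdk4 and Cdk6, the retinoblastoma gene Rb1, and the inhibitors Cdkn1b, Cdkn1c, Cdkn2a and Cdkn2b. They were chosen by symbol, and all 10 were found among the 24421 genes of the count table. Transcripts were measured by polyadenylated RNA sequencing in engineered muscle made from C2C12, an immortalised mouse line of myoblasts that stop dividing and fuse into myotubes in differentiation medium. A collagen gel seeded with these cells was held between titanium artificial tendons and kept in horse serum medium. The tested constructs then received TNF-alpha, an inflammatory cytokine, at 100 ng/mL for 72 h, and the controls received phosphate-buffered saline as vehicle. Each group held 3 constructs. No label says that they came from separate batches of cells, so the p-values cover only the spread among these constructs, all of 1 cell line.

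D-type cyclins are the subunits that growth signals induce to switch on the kinases CDK4 and CDK6, which phosphorylate the retinoblastoma protein and so release E2F transcription factors for S phase. The inhibitors of the Ink4 family (Cdkn2a, Cdkn2b and relatives) bind the kinases alone, whereas those of the Cip/Kip family (Cdkn1a, Cdkn1b, Cdkn1c) bind cyclin and kinase together. In muscle, withdrawal from the cycle before fusion goes with high p21, p27, p57 and retinoblastoma protein, and cyclin D3, unlike cyclin D1, is known to accumulate as myoblasts differentiate.

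The D cyclins reach the retinoblastoma protein partly through a short motif near the amino terminus, LxCxE, which all members of the trio carry. The start of each coding sequence is shown because it holds this shared motif. The sequences are from GENCODE M21 on GRCm38, 5′ to 3′ on the coding strand, with the codons of the motif in capitals. Ccnd1 is at chr7:144939646-144939693 (minus strand), Ccnd2 at chr6:127150726-127150773 (minus strand) and Ccnd3 at chr17:47593655-47593702 (plus strand).
Ccnd1: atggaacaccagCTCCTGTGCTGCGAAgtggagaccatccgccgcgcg
Ccnd2: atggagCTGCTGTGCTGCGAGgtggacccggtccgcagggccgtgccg
Ccnd3: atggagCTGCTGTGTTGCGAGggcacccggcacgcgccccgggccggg
The motif fell on codons 5 to 9 in Ccnd1 and on codons 3 to 7 in Ccnd2 and Ccnd3. Over the whole coding sequence, Ccnd1 and Ccnd2 were identical at 70.2% of aligned bases, Ccnd1 and Ccnd3 at 66.3%, and Ccnd2 and Ccnd3 at 68.8%. No stretch of 50 bases was shared between transcripts of any pair of the 10 genes.

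The libraries held 81713008 to 93533748 assigned counts, and levels are given as CPM, a count divided by the library total, scaled by the TMM method and set to a common unit. A gene was called when the quasi-likelihood test of edgeR gave a Benjamini-Hochberg adjusted p under 0.05 over all 15792 genes that passed a filter on low counts. Of the 10 genes, 8 passed the filter and 2 (Cdkn2a and Cdkn2b) had no count in any library. Among the 8, 2 rose (Ccnd1 and Cdk6), 4 fell (Ccnd3, Cdk4, Cdkn1b and Cdkn1c) and 2 did not pass the test (Ccnd2 and Rb1). Over all genes tested, 55.5% were called, 27.6% as risen and 27.9% as fallen, so a called gene is common in this comparison and the sizes below carry the description. The groups did not overlap for 7 of the 8 genes, against 64.5% of all genes tested. TNF-alpha was higher in 2 of them, against 32.6% of all genes, and lower in 5, against 31.9%. The median log2 fold change was -0.24 over the 8 genes and 0.0048 over all genes tested. In whole constructs, fewer cells of a type and less RNA per cell cannot be told apart.

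**Figure D1:**
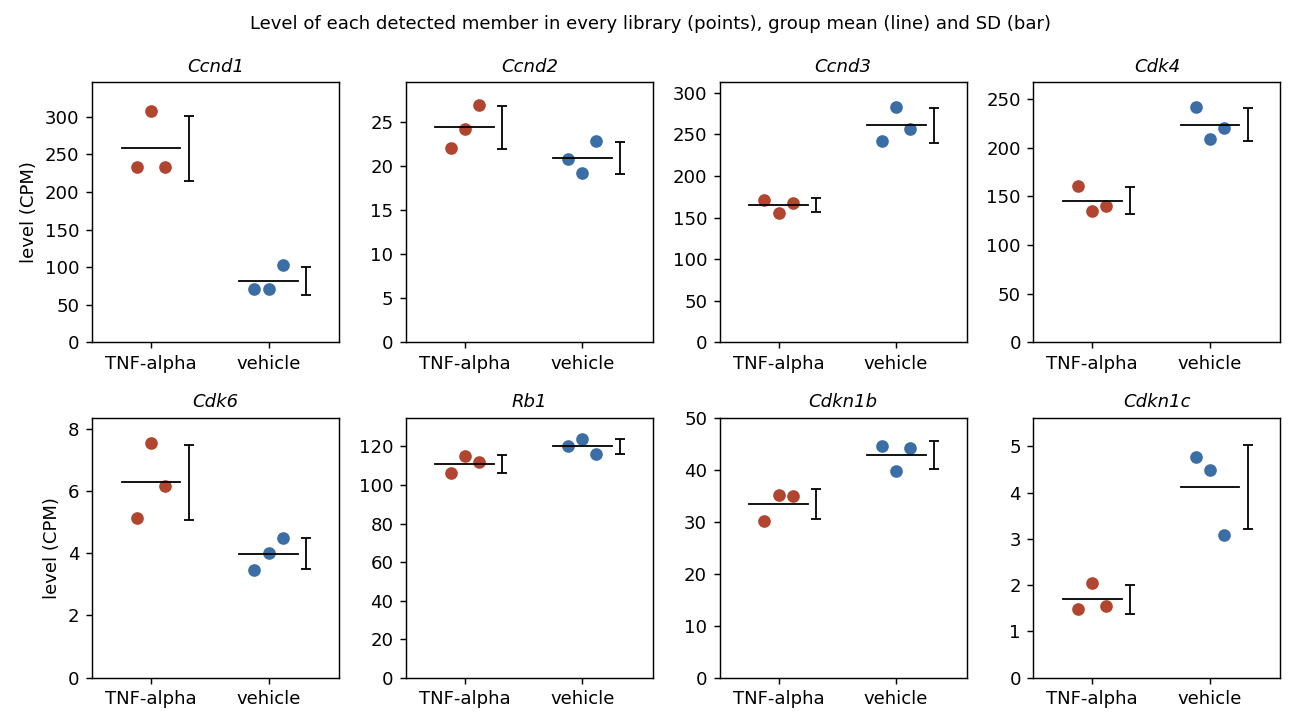
Level of each detected gene in the 6 libraries, in TMM-scaled CPM on linear axes that start at 0, with TNF-alpha constructs left of vehicle constructs. Points are libraries, the horizontal line is the mean of 3, and the whisker beside it spans 1 SD on each side. The groups overlap for Ccnd2 alone, and Ccnd1 shows the widest separation, with 233 to 308 CPM under TNF-alpha and 70.3 to 103 CPM under vehicle.

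Cyclin D1 rose and cyclin D3 fell, while cyclin D2 did not pass the test. Ccnd1 (ENSMUSG00000070348.5, chr7:144929931-144939925, minus strand), the D cyclin most tied to mitogens, had 233, 308 and 233 CPM in the TNF-alpha constructs and 70.9, 70.3 and 103 CPM in the vehicle constructs. Every TNF-alpha construct lay above every vehicle construct, and vehicle replicate 3 was the highest of its group. The mean was 258 ± 43.5 CPM under TNF-alpha and 81.6 ± 19.0 CPM under vehicle (SD, n = 3 each), a log2 fold change of 1.66 ± 0.19 (SE), or 3.17-fold, with an edgeR adjusted p of 0.000351. Ranked by size of log2 change, it stood at percentile 90.5 of all genes tested.

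Ccnd3 (ENSMUSG00000034165.16, chr17:47505051-47599691, plus strand), the D cyclin that accumulates in differentiating myoblasts, had 171, 155 and 168 CPM under TNF-alpha and 242, 283 and 257 CPM under vehicle. The groups were far apart, and the spread within each was small. Its log2 fold change was -0.67 ± 0.08 (0.631 of the vehicle level, edgeR adjusted p = 0.000118), with means of 164 ± 8.69 CPM under TNF-alpha and 261 ± 21.0 CPM under vehicle (SD, n = 3 each). Ccnd2 (ENSMUSG00000000184.12, chr6:127125162-127152193, minus strand), the remaining D cyclin, had 22.0, 24.2 and 26.9 CPM under TNF-alpha and 20.8, 19.2 and 22.8 CPM under vehicle. TNF-alpha replicate 1 lay inside the vehicle range. The log2 fold change of Ccnd2 was 0.22 ± 0.10 with an edgeR adjusted p of 0.0858. Without TNF-alpha replicate 1 it passed the test, at 0.29 and an adjusted p of 0.0339.

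The make-up of the D cyclin pool differed between the groups. To set the cyclins against each other, counts were divided by the length of all annotated exons of each gene, 4709 bases for Ccnd1, 9409 for Ccnd2 and 8775 for Ccnd3. Per kilobase, Ccnd1 made up 69.3%, 76.4% and 69.3% of the D cyclin transcripts in the TNF-alpha constructs and 33.6%, 30.3% and 40.9% in the vehicle constructs. Ccnd3 made up 27.4%, 20.6% and 26.7% under TNF-alpha and 61.5%, 65.6% and 54.6% under vehicle. The share of Ccnd1 was thus higher, and that of Ccnd3 lower, in every TNF-alpha construct than in any vehicle construct. Ccnd2 was a small part, with a mean share of 3.43% ± 0.514 under TNF-alpha and 4.53% ± 0.39 under vehicle (SD, n = 3 each). The sum of the D cyclins was 76.2 ± 8.26 CPM per kilobase under TNF-alpha and 49.3 ± 4.45 CPM per kilobase under vehicle (SD, n = 3 each), or 1.55-fold.

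The size of these shares, and the fold of the sum, depend on the length used. With the length of the transcript that has the longest coding sequence (3740 bases for Ccnd1, 6330 for Ccnd2 and 1999 for Ccnd3), a choice made after seeing the data, Ccnd1 made up 41.1%, 50.4% and 41.5% under TNF-alpha and 13.2%, 11.5% and 17.3% under vehicle. Ccnd3 then made up 56.6%, 47.3% and 55.7% under TNF-alpha and 84.5%, 86.7% and 80.5% under vehicle. The separation of the groups was the same, but Ccnd3 was the larger part in TNF-alpha replicates 1 and 3 as well as in every vehicle construct. Which D cyclin was the most abundant under TNF-alpha therefore cannot be read from these counts. On this length the sum of the D cyclins was 155 ± 7.39 CPM per kilobase under TNF-alpha and 156 ± 10.9 CPM per kilobase under vehicle (SD, n = 3 each), or 0.997-fold, so no difference in the total is reported. The share of Ccnd2 also turned, with 2.48% ± 0.294 under TNF-alpha and 2.13% ± 0.241 under vehicle (SD, n = 3 each).

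**Figure D2:**
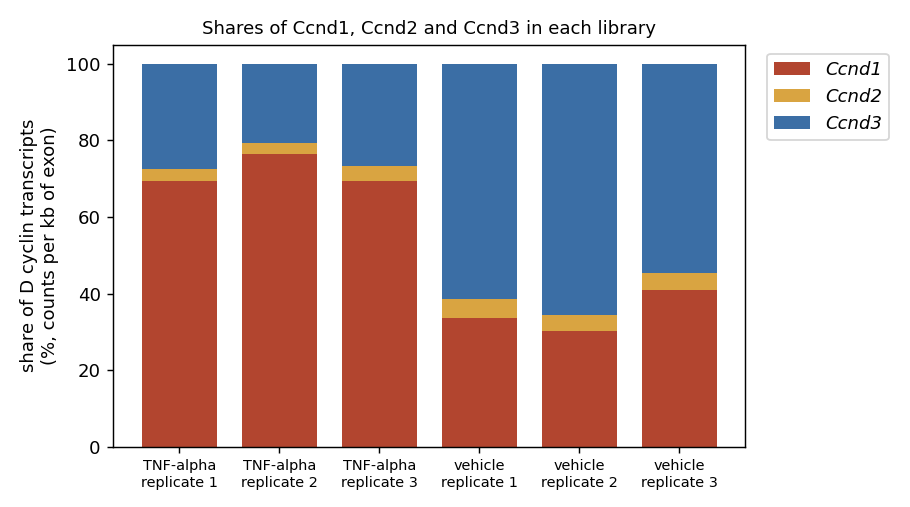
Share of each D cyclin in the summed D cyclin level of a library, in percent of counts per kilobase of all annotated exons, with TNF-alpha libraries left of vehicle libraries. Stacked bars run to 100%, and Ccnd1 fills 69.3% to 76.4% of the TNF-alpha bars and 30.3% to 40.9% of the vehicle bars.

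Ratios within a library, which do not depend on scaling between libraries, set the paralogs apart. The log2 ratio of Ccnd1 to Ccnd3 counts was 0.44, 1.00 and 0.48 under TNF-alpha and -1.77, -2.01 and -1.32 under vehicle, a difference of 2.34, or 5.05-fold. The log2 ratio of Ccnd1 to Ccnd2 was higher by 1.46 in the TNF-alpha constructs and that of Ccnd2 to Ccnd3 by 0.88. In each of these comparisons the groups did not overlap. The exact two-sided permutation test gave p = 0.1 for each (adjusted p = 0.1 over 5 pairs), which is the smallest value that 3 against 3 libraries allow. This test therefore cannot reach 0.05 with 3 libraries a group.

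Among the 10574 genes with a mean of at least 5 CPM searched for a likeness to the D cyclins, the genes whose log2 levels ran closest to Ccnd1 over the 6 libraries were Ptk2b, a focal adhesion family kinase, and Zc3h14, a poly(A) RNA-binding protein, with Pearson r of 0.999 and 0.998. For Ccnd3 they were Myod1, the myogenic transcription factor, and Fancm, a DNA repair helicase, each with r of 0.999. For Ccnd2 they were Mfap5, a microfibril protein, and Bcat1, a branched-chain aminotransferase, with r of 0.994 and 0.987. These values are a description over 6 libraries that fall in 2 groups.

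The partner kinases moved in opposite directions. Cdk4 (ENSMUSG00000006728.12, chr10:127063534-127067920, plus strand), the main D cyclin kinase of these constructs by level, had 161, 135 and 140.5 CPM under TNF-alpha and 242, 209 and 220.4 CPM under vehicle. All TNF-alpha constructs lay below all vehicle constructs. The log2 fold change was -0.62 ± 0.09 (0.65 of the vehicle level, edgeR adjusted p = 0.000344), with means of 145 ± 13.8 CPM under TNF-alpha and 224 ± 16.8 CPM under vehicle (SD, n = 3 each). Cdk6 (ENSMUSG00000040274.11, chr5:3341485-3531008, plus strand), its paralog with the same cyclin partners, had 5.15, 7.54 and 6.17 CPM under TNF-alpha and 3.47, 4.01 and 4.48 CPM under vehicle. The groups again did not overlap, with TNF-alpha higher. Cdk6 rose by a log2 fold change of 0.66 ± 0.17, or 1.58-fold (edgeR adjusted p = 0.00941). The log2 ratio of Cdk4 to Cdk6 counts was 4.54 ± 0.41 under TNF-alpha and 5.81 ± 0.27 under vehicle (SD, n = 3 each), and the groups did not overlap (exact permutation p = 0.1, the smallest possible).

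RefSeq promoter windows of 300 bases, from 250 before to 50 after an annotated start (GRCm38.p6), were available for Cdk4, Cdk6, Ccnd3, Cdkn1b, Cdkn2a and Cdkn2b and are not given for Ccnd1, Ccnd2, Rb1 and Cdkn1c. Both kinase windows are shown because their transcripts moved apart, with the window of Ccnd3 that lies just before the coding start shown above. All run 5′ to 3′ on the plus strand, at chr10:127063285-127063584 for Cdk4, chr5:3343643-3343942 for Cdk6 and chr17:47593217-47593516 for Ccnd3. Capitals mark the E-box CACGTG, bound by Myc family factors among others, and the GC box GGGCGG, bound by Sp1, on either strand.
Cdk4: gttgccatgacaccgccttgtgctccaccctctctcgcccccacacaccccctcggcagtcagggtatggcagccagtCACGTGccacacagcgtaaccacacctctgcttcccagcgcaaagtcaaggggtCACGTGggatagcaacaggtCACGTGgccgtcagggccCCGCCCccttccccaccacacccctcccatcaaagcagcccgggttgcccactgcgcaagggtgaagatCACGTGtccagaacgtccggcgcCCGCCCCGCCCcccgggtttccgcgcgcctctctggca
Cdk6: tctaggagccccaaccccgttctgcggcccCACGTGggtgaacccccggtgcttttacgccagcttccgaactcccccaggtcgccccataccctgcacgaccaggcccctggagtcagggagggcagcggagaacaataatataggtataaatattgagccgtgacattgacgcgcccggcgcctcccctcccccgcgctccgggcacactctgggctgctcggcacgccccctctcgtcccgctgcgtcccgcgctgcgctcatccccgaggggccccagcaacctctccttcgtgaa
Ccnd3: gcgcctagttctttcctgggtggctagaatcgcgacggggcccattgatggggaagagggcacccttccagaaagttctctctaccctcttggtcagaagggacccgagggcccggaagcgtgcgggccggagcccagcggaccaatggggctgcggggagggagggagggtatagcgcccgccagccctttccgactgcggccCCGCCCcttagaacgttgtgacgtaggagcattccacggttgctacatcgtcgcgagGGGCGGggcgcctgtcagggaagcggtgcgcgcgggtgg
The Cdk4 window held 4 CACGTG, a number reached by 8 of 32851 mouse windows of the same length (0.0244%). The Cdk6 window held 1, as 7.15% of windows hold at least 1, and the Ccnd3 window held none. GC boxes numbered 3 in the Cdk4 window, of which a pair overlaps, and 2 in the Ccnd3 window, and 35.7% of all windows hold one. On both strands, the AP-1 motif TGANTCA (7.81% of windows) and a kappaB motif (8.46%) had no match in any of the windows of these genes. Nor did the E2F forms TTTCGCGC or TTTGGCGC (0.813% for either). Other forms of the E2F motif were not searched. The CRE motif TGACGTCA (1.79%) had 1 match, in the Cdkn2b window. These matches describe letters in the windows and say nothing of binding. The levels of the Myc transcript, which encodes an E-box factor, are given beside them: 129.8, 113 and 116 CPM under TNF-alpha and 70.5, 71.6 and 102 CPM under vehicle (log2 fold change 0.56 ± 0.15, edgeR adjusted p = 0.0145). Without TNF-alpha replicate 1, Myc had an adjusted p of 0.0536.

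Rb1 (ENSMUSG00000022105.6, chr14:73183673-73325822, minus strand), which encodes the retinoblastoma protein that these kinases phosphorylate, did not pass the test. It had 106, 115 and 112 CPM under TNF-alpha and 120, 124 and 116 CPM under vehicle. The ranges did not overlap, but the gap between them was narrow. The log2 fold change was -0.11 ± 0.06 with an edgeR adjusted p of 0.137, and it ran from -0.15 to -0.08 over 14 alternative settings.

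The Cip/Kip inhibitors among the 10 genes both fell. Cdkn1b (p27, ENSMUSG00000003031.14, chr6:134920401-134925513, plus strand), which holds cyclin E with CDK2 in check, had 30.2, 35.1 and 35.0 CPM under TNF-alpha and 44.6, 39.7 and 44.2 CPM under vehicle. No TNF-alpha construct reached the lowest vehicle construct. The log2 fold change was -0.36 ± 0.08, or 0.781 of the vehicle level (edgeR adjusted p = 0.00522). Cdkn1c (p57, ENSMUSG00000037664.13, chr7:143458339-143461050, minus strand), an imprinted inhibitor that takes part in myoblast exit from the cycle, had 139, 176 and 129 counts under TNF-alpha and 398, 421 and 284 counts under vehicle. These correspond to 1.49, 2.05 and 1.54 CPM under TNF-alpha and 4.78, 4.49 and 3.09 CPM under vehicle, so Cdkn1c was low in all libraries and lower in every TNF-alpha construct. It fell to 0.411 of the vehicle level, with a log2 fold change of -1.28 ± 0.21 (edgeR adjusted p = 0.000962), the largest fall among the 8 genes tested. The log2 ratio of Cdkn1b to Cdkn1c was 4.31 ± 0.20 under TNF-alpha and 3.40 ± 0.38 under vehicle (SD, n = 3 each), a difference of 0.91 (exact permutation p = 0.1, the smallest possible).

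**Figure D3:**
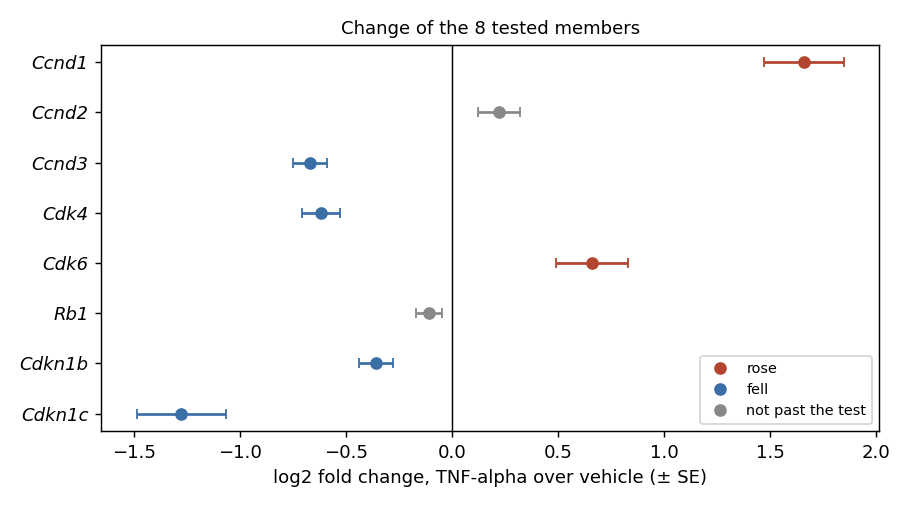
Log2 fold change of each of the 8 tested genes, TNF-alpha over vehicle, with whiskers of 1 SE from the edgeR fit. Ccnd1 at 1.66 and Cdkn1c at -1.28 lie farthest from 0, and Ccnd2 and Rb1 are the genes that did not pass the test.

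The Ink4 inhibitors Cdkn2a and Cdkn2b were not detected, whereas their relatives Cdkn2c and Cdkn2d, given below, were. Cdkn2a (ENSMUSG00000044303.6, chr4:89274471-89294653, minus strand), which encodes p16 and, in another reading frame, p19Arf, had 0 counts in each of the 6 libraries. Cdkn2b (p15, ENSMUSG00000073802.5, chr4:89306299-89311039, minus strand) also had 0 counts in each. A count of 0 allows up to 3 counts per library, or 0.032 to 0.036 CPM, counting error alone considered. No fold change can be given for either gene. The genes on both sides of the pair were examined beside them. Mtap (chr4:89137122-89181081, plus strand), an enzyme of methionine salvage, had 129, 124 and 129 CPM under TNF-alpha and 97.5, 73.8 and 91.1 CPM under vehicle, and rose by 0.54 ± 0.10 on the log2 scale (edgeR adjusted p = 0.00157). Klhl9 (chr4:88718292-88722465, minus strand), an adaptor of a ubiquitin ligase that was chosen after its values were seen, averaged 65.2 ± 3.26 CPM under TNF-alpha and 75.6 ± 6.20 CPM under vehicle (SD, n = 3 each). Its adjusted p was 0.0359 in the edgeR fit and up to 0.118, with the call lost, without TNF-alpha replicate 2 or 3 or vehicle replicate 1 or 3. Dmrta1 (chr4:89679436-89694772, plus strand), on the other side, had 2 counts in TNF-alpha replicate 3 and none elsewhere. Of the 3 neighbours examined, Mtap and Klhl9 were thus detected, and whether the locus is intact in these cells was not tested.

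Per length of all annotated exons, the order of the genes differed between the groups. Under TNF-alpha the means ran from Ccnd1 (54.8 ± 9.24 CPM per kilobase) through Cdk4 (44.7 ± 4.25), Ccnd3 (18.7 ± 0.99), Rb1 (18.5 ± 0.781), Cdkn1b (7.34 ± 0.619), Ccnd2 (2.59 ± 0.259) and Cdkn1c (0.83 ± 0.153) to Cdk6 (0.449 ± 0.086). Ccnd3 and Rb1 overlapped there, and the lowest Ccnd1 value met the highest Cdk4 value at 49.5. Under vehicle the order was Cdk4 (68.8 ± 5.16 CPM per kilobase), Ccnd3 (29.7 ± 2.39), Rb1 (20.0 ± 0.70), Ccnd1 (17.3 ± 4.03), Cdkn1b (9.41 ± 0.591), Ccnd2 (2.23 ± 0.192), Cdkn1c (2.02 ± 0.444) and Cdk6 (0.285 ± 0.036), all SD with n = 3. Rb1 overlapped with Ccnd1 in the vehicle libraries, as did Ccnd2 with Cdkn1c. The order changed when the length of 1 transcript per gene, that with the longest coding sequence, was used in place of all exons. Under TNF-alpha it then ran Ccnd3 (82.3 ± 4.35 CPM per kilobase), Cdk4 (70.8 ± 6.73), Ccnd1 (69.0 ± 11.6), Rb1 (23.9 ± 1.01), Cdkn1b (14.0 ± 1.18), Ccnd2 (3.85 ± 0.385), Cdk6 (2.55 ± 0.487) and Cdkn1c (0.897 ± 0.165). Under vehicle it ran Ccnd3 (130.5 ± 10.5 CPM per kilobase), Cdk4 (109 ± 8.16), Rb1 (25.8 ± 0.904), Ccnd1 (21.8 ± 5.07), Cdkn1b (17.9 ± 1.12), Ccnd2 (3.31 ± 0.286), Cdkn1c (2.18 ± 0.48) and Cdk6 (1.61 ± 0.204), all SD with n = 3. On this length the TNF-alpha libraries of Ccnd3, Cdk4 and Ccnd1 overlapped. In the vehicle libraries Rb1 overlapped with Ccnd1, and Cdkn1c with Cdk6. On both lengths Ccnd1, Ccnd3 and Cdk4 had the highest means under TNF-alpha and Ccnd3 and Cdk4 under vehicle, and Cdk6 and Cdkn1c were the lowest in both groups.

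Several of the genes share exon bases with a gene on the opposite strand, and the labels do not say whether the counting used strand, so reads in the shared bases cannot be assigned with certainty. Ccnd1 shares 1100 exon bases with Oraov1, which averaged 13.2 CPM under TNF-alpha and 14.8 CPM under vehicle and did not pass the test (adjusted p = 0.191). Cdk4 shares 641 bases with Tspan31, at 99.9 CPM under TNF-alpha and 94.0 CPM under vehicle (log2 fold change 0.09, adjusted p = 0.291). Ccnd3 shares 361 bases with Bysl, at 62.5 CPM under TNF-alpha and 75.2 CPM under vehicle (log2 fold change -0.27). Rb1 shares 488 bases with Rcbtb2, at 16.9 CPM under TNF-alpha and 23.9 CPM under vehicle (log2 fold change -0.50). It shares another 408 bases with Lpar6, at 3.38 CPM under TNF-alpha and 5.13 CPM under vehicle. Cdkn1c shares 625 bases with Gm44732, Ccnd2 shares 372 bases with Gm43126 and 368 with 9330179D12Rik, and Cdk6 shares 368 with Gm17590, all annotated as antisense genes. Of these, 9330179D12Rik was in the count table, at 0.0905 CPM under TNF-alpha and 0.0537 CPM under vehicle. The others were not found there under these names. The direction of Ccnd1 and of Cdk4 was thus not that of a called partner, whereas Bysl and both partners of Rb1 were called as fallen. Bysl lost its call without TNF-alpha replicate 2 or 3 or vehicle replicate 2 (adjusted p up to 0.0906), and Oraov1 passed without TNF-alpha replicate 1 (adjusted p = 0.0285), as lower under TNF-alpha.

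The other inhibitors of G1 kinases did not share the fall of Cdkn1b and Cdkn1c. Of 3 tested, 2 rose and none fell, where 27.6% of all genes tested rose and 27.9% fell. Cdkn1a (p21), an inhibitor induced by p53 and in differentiating muscle, had 1596, 1471 and 1404 CPM under TNF-alpha and 993, 1216 and 1045 CPM under vehicle. It was higher in every TNF-alpha construct, with a log2 fold change of 0.46 ± 0.10 (edgeR adjusted p = 0.00327). Cdkn2d (p19Ink4d) averaged 18.5 ± 1.64 CPM under TNF-alpha and 15.1 ± 0.75 CPM under vehicle (SD, n = 3 each; edgeR adjusted p = 0.0229), a call lost without TNF-alpha replicate 2 or 3 or vehicle replicate 1 or 2, where the adjusted p reached 0.0941. Cdkn2c (p18), at 27.3 CPM under TNF-alpha and 26.5 CPM under vehicle, had an adjusted p of 0.755.

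Most of the listed S phase and mitotic transcripts were lower under TNF-alpha, and E2F activity was not measured. Of 20 E2F target genes of S phase, 18 fell and none rose, with a median log2 fold change of -1.27. Over all genes tested, 27.9% fell and 27.6% rose, with a median of 0.0048. Mcm6, a subunit of the replicative helicase, averaged 18.4 ± 1.17 CPM under TNF-alpha and 68.7 ± 8.47 CPM under vehicle (SD, n = 3 each), a log2 fold change of -1.90 ± 0.10 (edgeR adjusted p = 1.7e-06). Pcna, the sliding clamp of DNA polymerase, did not pass the test, with 101 CPM under TNF-alpha and 109 CPM under vehicle (adjusted p = 0.165, and 0.0478 without vehicle replicate 2). All 12 mitotic genes fell (median -2.18), and 8 to 12 did with 1 library left out, the fewest without TNF-alpha replicate 3, while 9 did with a replicate block and 9 with no filter on low counts. Plk1, a mitotic kinase, averaged 3.35 ± 1.52 CPM under TNF-alpha and 19.2 ± 4.61 CPM under vehicle (SD, n = 3 each; log2 fold change -2.52 ± 0.40, edgeR adjusted p = 0.00229). The TNF-alpha libraries varied among themselves in these genes: Mki67, a marker of cycling cells, had 3.49, 24.3 and 13.4 CPM under TNF-alpha and 79.8, 56.9 and 86.1 CPM under vehicle. Its adjusted p was 0.0222, and its call was lost without TNF-alpha replicate 3 or vehicle replicate 1 or 3, with a replicate block and with no filter, where it reached 0.0743. No S phase or mitotic gene on these lists rose beside Ccnd1 and Cdk6.

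**Figure D4:**
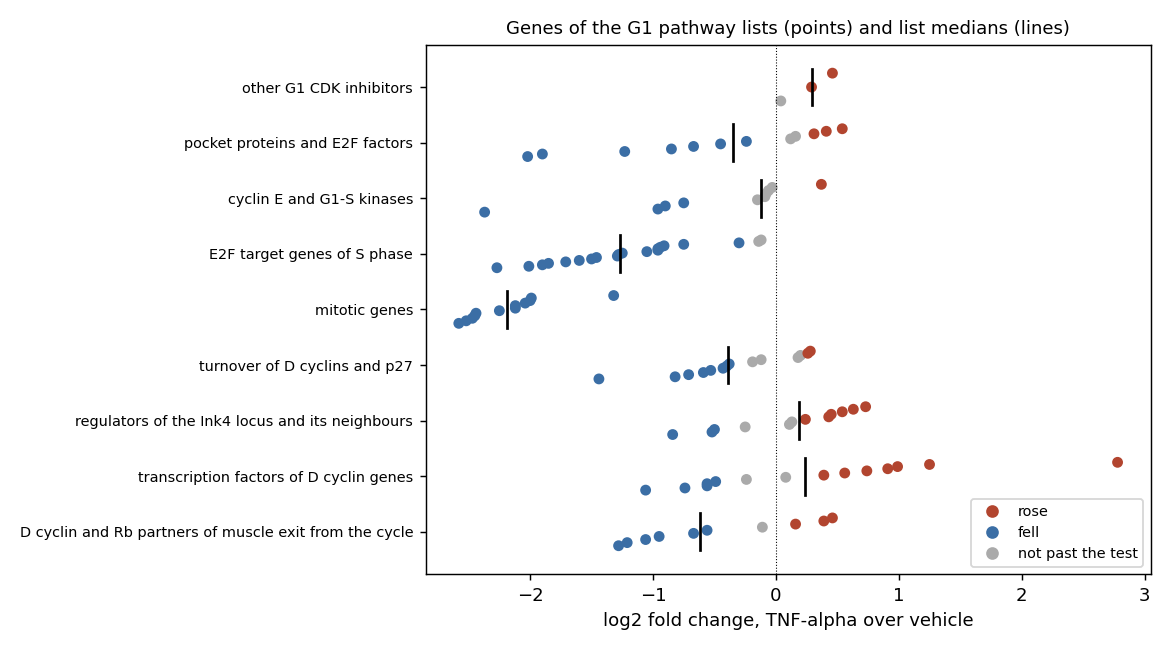
Log2 fold change, TNF-alpha over vehicle, of every tested gene in the 9 lists (points, coloured by whether the gene rose, fell or did not pass the edgeR test at an adjusted p under 0.05), with the median of each list as a vertical line. The S phase and mitotic lists have no risen gene, with 18 of 20 and 12 of 12 fallen, and the point at 2.78 is Fosl1. Of all genes tested, 27.6% rose and 27.9% fell.

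Among 12 pocket proteins and E2F factors, 3 rose and 7 fell (median -0.35). The Rb relatives Rbl1 and Rbl2 both fell, Rbl1 to 9.97 CPM under TNF-alpha against 15.9 CPM under vehicle and Rbl2 to 77.8 CPM under TNF-alpha against 106 CPM under vehicle. E2f1, an activating E2F, rose by 0.54 ± 0.08 on the log2 scale (edgeR adjusted p = 0.000466), while E2f2, another activator, had a log2 fold change of -1.23 ± 0.09 (edgeR adjusted p = 1.28e-05). E2f3, also an activator, rose by 0.41 (edgeR adjusted p = 0.00212). The atypical repressors E2f7 and E2f8 had log2 fold changes of -2.02 and -1.90. Of 10 tested genes for cyclin E and G1-S kinases, 1 rose and 4 fell (median -0.12). Beside both lists, 27.6% of all genes tested rose and 27.9% fell. In all 55.5% were called, a share that the cyclin E list did not exceed. Cdk2, the kinase that acts after CDK4 and CDK6, averaged 28.9 ± 0.897 CPM under TNF-alpha and 53.8 ± 0.288 CPM under vehicle (SD, n = 3 each; edgeR adjusted p = 4.29e-06). Its partners Ccne1, Ccne2 and Ccna2 fell too, by log2 fold changes of -0.96, -0.75 and -2.37. Cdk7, of the kinase complex that activates CDKs, rose by 0.37 ± 0.06 (edgeR adjusted p = 0.000827).

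Among 14 genes for the turnover of D cyclins and p27, 2 rose and 8 fell (median -0.39). The shares over all genes tested were 27.6% risen and 27.9% fallen. Skp2 and Cks1b, which together target p27 for destruction, had log2 fold changes of -0.71 and -1.44 (both fell). Fbxw7, the substrate receptor for cyclin E, averaged 39.8 ± 1.27 CPM under TNF-alpha and 70.3 ± 3.40 CPM under vehicle (SD, n = 3 each; log2 fold change -0.82, edgeR adjusted p = 1.1e-05). Gsk3b, the kinase that marks cyclin D1 for export and breakdown, rose by 0.28 ± 0.07 (edgeR adjusted p = 0.00707). Fbxo31, a receptor for cyclin D1, rose by 0.26 (adjusted p = 0.031), a call lost with upper-quartile scaling and without TNF-alpha replicate 3 or vehicle replicate 1 or 2, where the adjusted p reached 0.133. On the same list Fbxo4 fell (log2 fold change -0.38, edgeR adjusted p = 0.0103), and Ambra1 did not pass the test (adjusted p = 0.0521). Protein levels were not measured here.

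Of 12 tested regulators and neighbours of the Ink4 locus, 6 rose and 3 fell (median 0.19), and the risen genes include the neighbour Mtap. The shares over all genes tested were 27.6% risen and 27.9% fallen. Dmtf1, an activator of Arf transcription, rose by 0.73 ± 0.06 on the log2 scale (edgeR adjusted p = 1.72e-05). Bmi1, a Polycomb repressor of the locus, had a log2 fold change of -0.50 ± 0.07 (edgeR adjusted p = 0.000292). Other Polycomb genes on the list were mixed. Eed and Suz12 rose by 0.43 and 0.24, Ezh2 had a log2 fold change of -0.84 (fallen), and Cbx7, Ring1 and Rnf2 did not pass the test. Cdkn2a and Cdkn2b themselves were at 0 in both groups, and whether the locus is intact was not tested.

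Of 14 tested transcription factors known to act on D cyclin genes, 7 rose and 5 fell (median 0.24). For this list and the next, the shares over all genes tested were 27.6% risen and 27.9% fallen. Fosl1, an AP-1 subunit, averaged 143 ± 0.714 CPM under TNF-alpha and 20.9 ± 0.867 CPM under vehicle (SD, n = 3 each), or 6.86-fold (edgeR adjusted p = 3.77e-08). The NF-kappaB subunits Rela and Nfkb1 rose by 0.99 and 1.25 on the log2 scale and Jun, another AP-1 subunit, by 0.74. The AP-1 genes did not move as a group. Fos fell (log2 fold change -1.06, edgeR adjusted p = 0.00338), and Junb did not pass the test (adjusted p = 0.342). Lef1, Foxo1 and Smad3 also fell, and Stat3 and Foxo3 rose. Tcf7l2, a factor of Wnt signalling, had a log2 fold change of -0.74 ± 0.08 (edgeR adjusted p = 0.000108). Of 10 genes that work with D cyclins and Rb in muscle exit from the cycle, some of them members of the set above, 3 rose and 6 fell (median -0.61). Myod1, which can induce Ccnd3 and Cdkn1a, averaged 51.3 ± 3.39 CPM under TNF-alpha and 98.8 ± 11.2 CPM under vehicle (SD, n = 3 each; edgeR adjusted p = 3.93e-05). Mef2c, a myogenic factor, had a log2 fold change of -1.06. Myog, the factor of terminal differentiation, rose by 0.39 ± 0.08 (edgeR adjusted p = 0.00281).

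Marker genes of several cell types were also read, though all constructs were made from 1 cell line. The myotube, myoblast and fibroblast sets each held both risen and fallen genes. Over all genes tested, 27.6% rose and 27.9% fell. Of 8 myotube markers, 1 rose and 6 fell, and their summed level was 5466 to 6311 CPM under TNF-alpha and 8595 to 10044 CPM under vehicle. Much of this sum was Acta1, with 3344 ± 329 CPM under TNF-alpha and 3437 ± 264 CPM under vehicle (SD, n = 3 each). Without Acta1 the sum was 2422 to 2614 CPM under TNF-alpha and 5447 to 6378 CPM under vehicle. Of 6 myoblast markers, 2 rose and 4 fell, with sums of 1569 to 1608 CPM under TNF-alpha and 1951 to 2195 CPM under vehicle. Of 5 tested fibroblast markers, 2 rose and 3 fell. Their sum was 5933 to 6267 CPM under TNF-alpha and 2004 to 2551 CPM under vehicle, nearly all of it Dcn, with 6022 CPM under TNF-alpha and 2029 CPM under vehicle. Of 3 tested macrophage markers, all 3 rose, but Ptprc averaged 0 CPM under TNF-alpha and 0.0339 CPM under vehicle, and Adgre1 averaged 0.0113 CPM under TNF-alpha and 0 CPM under vehicle. Endothelial, adipocyte and Schwann cell markers each summed to under 4 CPM in every library. The myotube genes that label the constructs were thus present in both groups, and the part of cell composition in the changes of the D cyclins, kinases and inhibitors was not tested.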

How the data were processed

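The labels describe polyadenylated RNA libraries made with a stranded kit and sequenced in paired ends. The authors deposited 1 table of estimated counts per gene: 20.1% to 21.0% of values per library have decimals, whereas the submitters' design text speaks of integers. The submitters' processing notes name TopHat2 2.1.1, Bowtie2 2.3.5.1, featureCounts, Subread 2.0.0 and DESeq2, and the builds mm10 and GRCm38, with no role or order. The options used for counting are not given in these sources.

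Counts were rounded and tested with edgeR 4.0.16 in R 4.3.3 (filterByExpr, TMM, robust quasi-likelihood fit, group as the only term). Standard errors come from the F statistic. The test was also run on simulated counts with far fewer changed genes than were called here, which does not check the calls of these data. Replicates differed by more than sampling noise, so all 6 libraries were used. For ratios, 0.5 counts were added. Alternatives used other scalings and filters, limma 3.58.1 (voom), DESeq2 1.42.0, a replicate block and leaving out each library. Positions are from GENCODE M21 (GRCm38).

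The genes, the 9 lists and the markers were chosen with earlier results of these data known. Named genes were the 10 genes, the smallest p in each direction of a list, and the 2 genes most like each D cyclin. The others were named after their values were seen.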

Additional observations from a re-analysis of the deposited data

How the results depend on the processing

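Over 14 alternatives per gene (scaling, filters on low counts, DESeq2, limma-voom, no robust estimation, replicate block, each library left out), between 7421 and 8916 genes were called. The 6 called genes among the D cyclins, kinases and inhibitors kept their direction and their call in all 14. Rb1 stayed outside the threshold in all 14, and Ccnd2 in 13. The number of risen genes among the other G1 kinase inhibitors ran from 1 to 2 with a library left out. That for turnover genes was 1 with upper-quartile scaling and ran from 1 to 3 with a library left out. The difference in Ccnd2 share, TNF-alpha minus vehicle, was -1.11 percentage points per length and -0.309 when counts were not divided by length. With the length of 1 transcript per gene, chosen after seeing the data, the share differences were 30.3 points for Ccnd1, 0.35 for Ccnd2, which reversed, and -30.7 for Ccnd3, and the fold of the D cyclin sum was 0.997 in place of 1.55. These follow from the lengths alone, since the counts were the same. With a library left out the fold of the sum ran from 1.45 to 1.62. Upper-quartile scaling moved the median log2 fold change of all genes to -0.029.

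With the replicate number as a block, 8486 genes were called, and the same 2 rises and 4 falls stood among the 8 genes tested. Libraries that share a number correlated at 0.0428, -0.0454 and -0.114 in their deviations from the group means, and 2 of the 6 libraries correlated best with their own number, so the numbers were not taken to pair the constructs. With 3 libraries a group, exact tests could not go below 0.1. For Cdkn2a and Cdkn2b the depth sets a limit of 3 counts a library.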
